A study of Mus musculus with 8 samples.

Results

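Among 497 LT-HSC, the long-term hematopoietic stem cells of the bone marrow, taken from aged mice, 65 (13.1%) showed at least 1 transcript of 6 genes of mitosis when every cell was read at the same depth, and the other 432 cells showed none. The cells were chosen by their measured UMIs of Mki67, Top2a, Birc5, Ccnb1, Cdk1 and Ube2c, so these 6 genes mark the cells and are no finding about them. The cells came from untreated male C57BL/6J mice aged 18 months. They were sorted as Lin-CD150+CD48-CD34-Kit+Sca1+ and split by the surface protein Dlk1 into Dlk1+ and Dlk1- cells, with 4 libraries of 96 wells for each sort. RNA was read with mCEL-Seq2, a plate method in which every well receives a cell barcode and every transcript a unique molecular identifier (UMI). No label ties a library to an animal. P-values therefore measure the spread between libraries, which may be technical.

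A stem cell of this kind is mostly quiescent, outside the cell cycle, and re-enters it rarely. During S phase a cell copies its DNA with the MCM helicase and the sliding clamp PCNA. In G2 phase and mitosis it builds up cyclins, their kinase, the spindle and the condensin that compacts chromosomes, and many of these genes are transcribed mainly then. Divided stem cells can keep their identity or move towards the multipotent progenitors and the blood lineages.

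A barcode was counted as a cell when it lay in its library's own set of wells and held at least 2000 transcripts, which 499 barcodes did. Each cell was thinned at random to 2000 UMIs so that deep and shallow cells had the same chance to show a marker, and 2 cells with fewer UMIs were left out. Cells with at least 1 marker UMI in that draw are called mitotic-transcript cells here, and the others marker-free cells. Without thinning, 96 cells (19.3%) held a marker UMI, so some marker-free cells carry one outside the draw. The 4 Dlk1- libraries held 15 of 93, 7 of 34, 12 of 92 and 7 of 88 mitotic-transcript cells. On the Dlk1+ side, replicate 1 held 12 of 82, replicate 2 held 2 of 25, replicate 3 held 0 of 4 (a count of 0 taken as up to 3 allows a share of up to 75%, and its 95% Wilson interval reaches 49.0%) and replicate 4 held 10 of 79. Barcode numbers name wells and recur by design: all 96 numbers used on the Dlk1- side and 80 of 86 on the Dlk1+ side occurred in at least 2 libraries.

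The markers that chose the cells are a description and were not tested. Top2a, the topoisomerase that untangles sister chromatids, was the most frequent, with 70 UMIs in 42 cells, and it alone marked 20 of them. Mki67, whose protein coats mitotic chromosomes, gave 48 UMIs in 24 cells. Cdk1, the mitotic kinase, was seen in 19 cells, Ube2c, an enzyme of the anaphase-promoting complex, in 16, Ccnb1, cyclin B1, in 14 and Birc5, a subunit of the chromosomal passenger complex, in 11. Birc5 marked no cell by itself, which means that each of its 11 cells also held another marker. The rule's threshold is a single UMI: 38 cells lay just inside it with exactly 1, 27 held between 2 and 12, and 27 cells showed at least 2 of the 6 genes.

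UMIs that the draw had not used gave a separate reading of the same cells. In these held-out UMIs the markers made up 18.5 per 10000 in mitotic-transcript cells and 0.380 per 10000 in marker-free cells. Cells with exactly 1 marker UMI in the draw had 4.36 per 10000 and cells with at least 2 had 29.4. Among cells with at least 1000 held-out UMIs, a marker was found again in 25 of 26 cells chosen with at least 2 UMIs (96.2%), in 17 of 34 chosen with exactly 1 (50%), and in 31 of 366 marker-free cells (8.47%). Over all cells of these 3 groups the median held-out depth was 6967, 3707.5 and 2566 UMIs, so these percentages are not at equal depth. The markers came back less often in the single-UMI cells, and some results are also given for these cells alone. Over all 8 libraries, barcodes that belonged to no sorted well held 13 marker UMIs among 23663 UMIs, or 5.49 per 10000. Most of these marker UMIs lay in Dlk1- libraries. How stray UMIs bear on the single-UMI cells was not tested.

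Other genes of the cycle, none of them used to choose the cells, followed the number of marker UMIs as the plot of list UMIs per cell shows. The G2 and mitosis list (72 genes in the tables, markers excluded) had a median of 2 UMIs in marker-free cells, 3.5 in cells with exactly 1 marker UMI and 22 in cells with at least 2. For the S phase and DNA replication list (56 genes) the medians were 2, 2 and 8 UMIs. The separation was not complete. At or above the mitotic-transcript cells' own median of 5 UMIs of the G2 and mitosis list lay 59 marker-free cells (13.7%), and at or above their median of 6 UMIs of the S phase list 33 (7.64%).

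Before genes were compared, a mitotic-transcript cell of Dlk1+ replicate 4 stood apart and touches several results. It held 37287 transcripts, the most of any cell, and 8.57% of them belonged to the myeloid list, against 0.189% in the next highest of the other 496 cells. S100a9 and S100a8, which form the calprotectin of granulocytes, gave 870 and 854 transcripts, and the granule protein genes Ngp, Camp and Lcn2 gave 486, 331 and 308. All 5 were at 0 in the other 64 mitotic-transcript cells and between 1 and 8 transcripts in all 432 marker-free cells together. Cd48, which the sort excluded, had 5.00 transcripts in this cell and 0 in every other. The cell supplied 35.9% of the transcripts of its library's 10 mitotic-transcript cells, so the counts of the main gene lists are also given without it.

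For the comparison across genes, transcripts were summed over the mitotic-transcript cells and over the marker-free cells of each library. Both sums existed in 6 libraries, Dlk1- replicates 1 to 4 and Dlk1+ replicates 1 and 4, with 63 and 405 cells. The sums held 44066 to 111512 and 151677 to 422752 transcripts. Values are CPM, the counts of a gene scaled to a fixed total of transcripts for every sum, and limma-voom compared the 2 sums within each library with library as a block. CPM are shares of a cell's RNA and not amounts per cell. Mitotic-transcript cells had more transcripts: the library medians averaged 12.73 ± 0.31 on the log2 scale against 12.20 ± 0.13 (SD, n = 6), a difference of 0.53 or 1.44-fold. The difference pointed the same way in 6 of 6 libraries (exact sign-flip test, p = 0.03125, the smallest possible, 0.078 adjusted over 5 measures per cell).

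Of 1655 genes tested apart from the markers, 297 (17.9%) passed a Benjamini-Hochberg adjusted p of 0.05, with 139 higher (8.4%) and 158 lower (9.55%) in the mitotic-transcript cells. The median log2 fold change over all tested genes was -0.02. Scaling by library size alone moved that median to 0.10 and gave 204 higher and 100 lower genes. Without the cell rich in granulocyte transcripts 140 were higher and 130 lower, and 249 of the 297 calls were shared. Leaving out Dlk1+ replicate 4 as a whole left 93 lower genes. The low-count filter, 76.0 CPM at the median sum in at least 6 of the 12 sums, favours genes high in either group, and 13 genes passed it through the mitotic sums only. These 13 had to differ, and their calls support nothing further. A gene counted as passing through both kinds of sum once a single marker-free sum reached the level. Genes mostly low in marker-free cells were thus favoured too.

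Genes of G2 phase and mitosis formed the upper end of the comparison. Summed over the 72 genes of the list, the level was 6431 ± 1547 CPM in mitotic-transcript cells and 1163 ± 70.5 CPM in marker-free cells (SD, n = 6), 5.53 times as high, and it was higher in 6 of 6 libraries. Single tested genes were higher in all 6 libraries in 6.04% of cases and lower in all 6 in 11.5%. Of the 71 genes detected, 70 had the higher mean in the mitotic-transcript cells. Only 13 passed the low-count filter. Of these, 7 passed through the mitotic sums alone and had to differ: Ccna2, Ccnb2, Cenpe, Cenpf, Cks1b, Lmnb1 and Smc2. The other 6, Smc4, Hjurp, Bub3, Spc24, Tubb4b and Arl6ip1, reached the cutoff in sums of both kinds and rose, beside 8.4% of all tested genes. Bub3 and Hjurp averaged 60.1 and 70.5 CPM in marker-free cells, under the cutoff of 76.0 CPM, so the filter favoured their rise too. Without the cell rich in granulocyte transcripts the tested genes numbered 12, all called higher, and without Dlk1- replicate 2 they numbered 23, again all called higher. The latter fit let in more low genes, 2969 in all against 1655. How many of the 23 passed through the mitotic sums alone was not counted, so that count supports nothing further.

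Ccna2, cyclin A2, which drives S phase and entry into mitosis, showed the widest gap and, as one of the genes that had to differ, is given as a description. Its CPM in the mitotic-transcript cells of Dlk1- replicates 1 to 4 were 201, 206, 172 and 88.7, and in Dlk1+ replicates 1 and 4 they were 146 and 222. In the marker-free cells of the same libraries they were 2.78, 0, 0, 2.02, 0 and 4.97. The lowest mitotic value was thus far above the highest marker-free value, and the marker-free values rest on 4 transcripts in all. The fitted log2 fold change of 5.80 depends on the 0.5 added to low counts. Ccnb2, cyclin B2, with 154 against 3.13 CPM, Cenpe, the kinesin of the kinetochore, with 142 against 5.16, and Cenpf, another kinetochore protein, with 149 against 10.5, passed the filter in the same way and are likewise descriptions.

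Hmgb2, a chromatin protein that bends DNA and is abundant in dividing cells, reached the filter's cutoff in sums of both kinds. Its marker-free mean of 69.4 CPM lay under the cutoff of 76.0 CPM, so the filter favoured a rise. It measured 1023, 765, 676 and 550 CPM in the mitotic-transcript cells of the Dlk1- libraries and 242 and 584 in those of Dlk1+ replicates 1 and 4. Marker-free cells gave 108, 56.4, 64.5, 88.8, 38.9 and 59.6 CPM. The groups did not overlap, as in 5.32% of all tested genes, Dlk1+ replicate 1 being the lowest of both, and the log2 fold change was 3.15 ± 0.16 (SE, limma-voom with Benjamini-Hochberg adjustment, adjusted p = 7.21e-13). At equal depth Hmgb2 was seen in 46.2% of the mitotic-transcript cells and in 12.5% of the others. It was among the 30 calls that also held with exactly 1 marker UMI, where the log2 difference was 2.25 (adjusted p = 0.0127 in the limma-voom fit).

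Other genes that organise chromosomes and the spindle rose with it. Smc4, a condensin subunit, was at 333 ± 78.8 against 83.2 ± 16.7 CPM (log2 difference 1.96). Tuba1a and Tubb5, the alpha and beta tubulins of microtubules, were at 1651 ± 486 against 479 ± 68.1 CPM and at 1182 ± 189 against 440 ± 76.2 CPM. Both tubulins were higher in 6 of 6 libraries without overlap, with log2 differences of 1.75 and 1.43. Stmn1, which destabilises microtubules, differed by 1.49, H2afz, a histone variant, by 1.62, and Dek, a chromatin protein, by 1.45. In the list of chromatin and cytoskeleton genes of dividing cells 19 of 21 tested members rose and 0 fell, beside 8.4% and 9.55% of all tested genes, and the summed level was 1.79 times as high. Of these 21, 2 had passed the filter through the mitotic sums only and had to differ, H2afx and Anp32e. Hmgb2, Hmgn2 and Tuba1c averaged 69.4, 73.3 and 57.1 CPM in marker-free cells. These means lay under the cutoff of 76.0 CPM, so the filter favoured the rise of these genes too. The counts were again 19 and 0 without the cell rich in granulocyte transcripts and with library size alone.

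Promoters of these genes are shown because the cell cycle genes element TTTGAA (CHR) and the CCAAT box are the sequences by which a shared set of factors times transcription to G2 and mitosis. The 250 bases before the transcription start of 2 of the markers and of 2 genes that rose follow, from RefSeq on GRCm38.p6, each read 5′ to 3′ on the gene's own strand. Capitals mark TTTGAA and CCAAT on either strand, so that TTCAAA and ATTGG are the same elements on the opposite strand. The windows are chr10:69352913-69353162 (minus strand, Cdk1), chr2:164769679-164769928 (plus strand, Ube2c), chr9:70421555-70421804 (minus strand, Ccnb2) and chr8:57511593-57511842 (plus strand, Hmgb2).
Cdk1: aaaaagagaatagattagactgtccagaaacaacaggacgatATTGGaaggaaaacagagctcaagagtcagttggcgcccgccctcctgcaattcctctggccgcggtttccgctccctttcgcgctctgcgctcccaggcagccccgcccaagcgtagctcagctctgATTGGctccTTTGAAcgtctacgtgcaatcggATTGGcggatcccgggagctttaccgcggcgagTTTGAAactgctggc
Ube2c: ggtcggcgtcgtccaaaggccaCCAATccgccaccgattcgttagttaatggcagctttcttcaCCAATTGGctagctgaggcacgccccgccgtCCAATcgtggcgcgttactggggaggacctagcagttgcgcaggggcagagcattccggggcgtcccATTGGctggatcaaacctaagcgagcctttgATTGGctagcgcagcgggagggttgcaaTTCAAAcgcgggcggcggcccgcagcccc
Ccnb2: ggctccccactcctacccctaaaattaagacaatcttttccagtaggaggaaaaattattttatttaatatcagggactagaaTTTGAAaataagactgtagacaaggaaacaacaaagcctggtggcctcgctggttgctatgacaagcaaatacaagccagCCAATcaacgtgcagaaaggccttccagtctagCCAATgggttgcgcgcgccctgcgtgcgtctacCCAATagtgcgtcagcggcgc
Hmgb2: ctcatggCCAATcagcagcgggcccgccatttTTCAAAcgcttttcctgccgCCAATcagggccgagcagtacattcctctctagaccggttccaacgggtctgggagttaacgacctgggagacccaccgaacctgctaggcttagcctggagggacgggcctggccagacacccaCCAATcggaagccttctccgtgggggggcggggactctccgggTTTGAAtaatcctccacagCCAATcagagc

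In Cdk1 and Ube2c, and in Hmgb2, a TTTGAA element lies close to the start, at -15, -29 and -30 bases, with 3, 6 and 4 CCAAT boxes in the printed bases. In Ccnb2 the printed TTTGAA lies at -167, and another begins 4 bases past the start. In Ube2c a CCAAT and its reverse overlap and are counted once on each strand. Searched on both strands in the 300 bases from 250 before to 50 after the start, both elements occurred together in 4 of 6 markers. Of the 10 promoters of 9 G2 and mitosis genes that rose and had an entry, 8 (80%) held TTTGAA and 10 (100%) held CCAAT. Counted by gene, 7 of the 9 held TTTGAA and all 9 held CCAAT. Over all 32851 promoters of the table the shares were 17.9% and 37.4%, and 6.95% held both. Among all genes that rose, 114 of 139 had an entry, and 21.5% of their 135 promoters held TTTGAA, 57.0% CCAAT and 16.3% both. Among genes that fell, 106 of 158 had an entry, and 13.3% of their 143 promoters held TTTGAA, 41.3% CCAAT and 2.80% both. For tested genes that were not called the shares were 10.3%, 33.3% and 4.00%. A match is a run of letters and not a shown binding site, and these shares were not tested.

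Genes of S phase were higher too. The summed level of the 56 listed genes was 4020 ± 1465 CPM against 1305 ± 155 CPM, 3.08 times as high and higher in 6 of 6 libraries. It ranged widely between libraries, from 1613 CPM in the mitotic-transcript cells of Dlk1- replicate 4 to 5918 CPM in those of Dlk1+ replicate 1. All 5 tested members rose, beside 8.4% of all tested genes. They were Mcm3, Mcm6 and Mcm7, subunits of the replicative helicase, Pcna, the sliding clamp, and Dnmt1, which copies DNA methylation to the new strand. In marker-free cells Mcm3, Mcm6 and Dnmt1 averaged 41.4, 68.9 and 67.4 CPM. These means lay under the filter's cutoff of 76.0 CPM, so the filter favoured their rise. The count was again 5 of 5 without the cell rich in granulocyte transcripts. Without Dlk1- replicate 4 there were 12 of 12, and without Dlk1- replicate 2 there were 10 of 14. How many of the members added in these fits passed through the mitotic sums only was not counted.

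Pcna measured 394, 382, 418 and 142 CPM in the mitotic-transcript cells of the Dlk1- libraries and 631 and 229 in those of Dlk1+ replicates 1 and 4. In marker-free cells it was at 153, 148, 177, 180, 169 and 134 CPM. Dlk1- replicate 4 was the exception, with the lower value in its 7 mitotic-transcript cells, and the groups overlapped through it. The log2 difference was 1.16 ± 0.18 (limma-voom, adjusted p = 5.24e-05). Mcm7, with 197 ± 84.6 against 81.8 ± 5.58 CPM, was higher in 6 of 6 libraries without overlap. Pcna and Mcm7 also held with exactly 1 marker UMI, with log2 differences of 1.28 and 1.49.

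Genes that set the choice between quiescence and the cycle split. Cdk6, the G1 kinase that LT-HSC are known to keep low while quiescent, rose: its CPM were 376, 397, 528, 337, 340 and 325 in mitotic-transcript cells and 208, 197, 317, 218, 164 and 186 in marker-free cells, in the order of libraries used above. Every mitotic value lay above every marker-free value, the closest pair being 325 and 317. The log2 difference was 0.84 ± 0.13 (limma-voom, adjusted p = 3.01e-05), and it held in all 28 alternatives that tested it. Ccnd2, cyclin D2, a partner of Cdk6, instead fell, from 599 ± 124 in marker-free to 340 ± 123 CPM (log2 difference -0.80, lower in 5 of 6 libraries).

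Txnip, a thioredoxin inhibitor that is abundant in quiescent cells, fell from 1025 ± 211 to 492 ± 161 CPM, lower in 6 of 6 libraries without overlap (log2 difference -1.10, limma-voom adjusted p = 2.12e-06). Btg2, which restrains proliferation, and Gas5, a growth-arrest RNA, fell by 0.72 and 0.51. The call of Btg2 was lost without Dlk1+ replicate 4. That of Gas5 was lost without the cell rich in granulocyte transcripts (limma-voom adjusted p = 0.055), with library size alone, against depth-matched cells, and without Dlk1- replicates 1, 2 or 3 or Dlk1+ replicate 4. Cdk6 was therefore the 1 call upward in the list of cell cycle inhibitors and G1 genes, with 4 downward of 11 tested, beside 8.4% and 9.55% of all tested genes. The downward count was 3 of 10 without the cell rich in granulocyte transcripts. Leaving out Dlk1+ replicate 4 left 2 of 10, nearer that share. Cdkn1c, an inhibitor tied to stem cell quiescence, was too low to test, with 50.8 ± 28.7 CPM in mitotic-transcript and 67.9 ± 31.4 CPM in marker-free cells.

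Stem cell genes were lower in mitotic-transcript cells but far from absent. The HSC list of 36 genes summed to 6460 ± 727 against 9332 ± 760 CPM, 0.692 of the marker-free level, and lay lower in 6 of 6 libraries. Of 25 tested members 12 fell and 0 rose, beside 9.55% of all tested genes that fell, with a median log2 difference of -0.48. Without the cell rich in granulocyte transcripts 10 fell and the sum was 6759 ± 618 against 9310 ± 765 CPM. With a group of marker-free cells matched for depth 10 of 24 fell. Counted per cell at 2000 UMIs, the list's median was 19 UMIs in marker-free cells, 15 in cells with exactly 1 marker UMI and 12 in cells with at least 2. Every mitotic-transcript cell held at least 5 UMIs of it. For the single-UMI cells alone 0 of 24 tested members passed in the limma-voom fit.

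Procr, the protein C receptor EPCR, a surface marker of stem cells, had the lowest fitted fold change of the list. It was at 26.2, 58.8, 24.6 and 0 CPM in the mitotic-transcript cells of the Dlk1- libraries and at 48.5 and 59.1 in those of Dlk1+ replicates 1 and 4, against 100.0, 211, 132, 107, 169 and 169 CPM in marker-free cells. All mitotic values lay below all marker-free values (log2 difference -1.96 ± 0.35, limma-voom adjusted p = 0.000217). The mitotic values rest on 20 transcripts. At equal depth Procr was seen in 9.23% of mitotic-transcript and 22.7% of marker-free cells.

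Ly6a, which encodes the Sca1 protein used in the sort, showed the same form, with 17.5, 14.7, 36.9, 70.9, 48.5 and 51.7 CPM against 147, 148, 107, 117, 190 and 229 CPM (log2 difference -1.88). The groups did not overlap, although all cells had been sorted for the protein. Hlf, a transcription factor of stem cells, was better covered, at 236 to 356 CPM in the 6 mitotic sums and 495 to 795 CPM in the marker-free sums, again without overlap (log2 difference -0.88 ± 0.13, limma-voom adjusted p = 2.02e-05). Ifitm1, an interferon-induced membrane protein that marks stem cells, fell by 1.21, Sult1a1, a sulfotransferase, by 1.47, Mycn, a Myc family factor, by 1.02, and Mllt3, a factor that maintains stem cells, by 0.94. Kit, the stem cell factor receptor of the sort, fell by 0.45, a call that held in 15 of 28 alternatives. It was lost without the cell rich in granulocyte transcripts (adjusted p = 0.076 in the limma-voom fit). The call was also lost with library size alone, against depth-matched cells, and without Dlk1- replicates 1, 2 or 3 or Dlk1+ replicate 4.

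Some genes of the same list gave no call. Gata2, a factor of stem and mast cells, was at 369 ± 34.4 against 408 ± 80.7 CPM, and Mecom, a factor needed for stem cell maintenance, at 94.0 ± 35.5 against 150 ± 54.1 CPM (limma-voom adjusted p = 0.47 and 0.083). Slamf1, the CD150 of the sort, was too low to test, with 49.2 ± 36.4 against 68.0 ± 13.3 CPM. Of the sort's negative markers, Cd34 had 69.7 ± 43.8 against 52.1 ± 8.54 CPM, and was seen in 12.3% and 9.49% of cells at equal depth.

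Genes tied to stem cell aging overlap with the HSC list in Mllt3 and with the immediate early list in Nr4a1, Egr1, Junb and Zfp36. Of 19 tested members 7 fell and 0 rose, beside 9.55% of all tested genes that fell, and the summed level was 0.644 of that in marker-free cells. Without the cell rich in granulocyte transcripts 6 fell and the ratio was 0.673. Gda, the guanine deaminase, fell by 1.19 on the log2 scale and Alcam, an adhesion protein, by 1.22, the latter call being lost without Dlk1+ replicate 4. Vwf, von Willebrand factor, a marker of the platelet-biased stem cells that gather with age, gave no call at 140 ± 49.0 against 178 ± 21.2 CPM (limma-voom adjusted p = 0.246).

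Meg3, the maternally expressed long noncoding RNA beside Dlk1 (chr12:109540996-109571729), had the lowest fold change of all tested genes. It measured 0, 14.7, 49.2 and 70.9 CPM in the mitotic-transcript cells of Dlk1- replicates 1 to 4 and 146 and 66.5 in those of Dlk1+ replicates 1 and 4. In marker-free cells the values were 119, 211, 43.0, 218, 419 and 678 CPM. Meg3 was lower in 5 of 6 libraries, Dlk1- replicate 3 being the exception, and the groups overlapped (log2 difference -2.56 ± 0.38, limma-voom adjusted p = 2.82e-05). It rests on 27 transcripts in the mitotic-transcript cells. Dlk1, the protein of the sort, was not among the tested genes. Within the Dlk1+ libraries it had 291 and 177 CPM in mitotic-transcript against 597 and 666 CPM in marker-free cells.

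**Figure D1:**
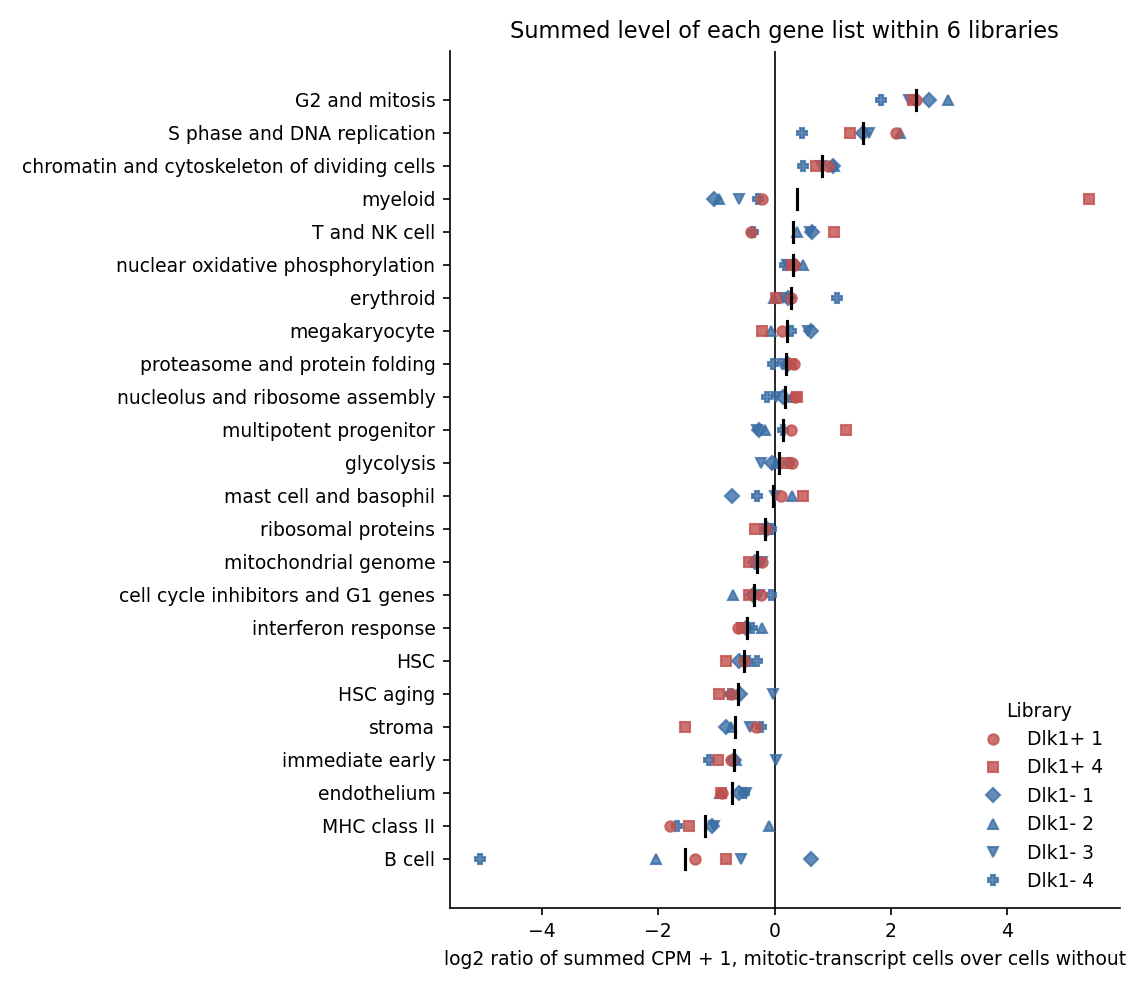
Log2 ratio of the summed CPM of each gene list, mitotic-transcript over marker-free cells, with a point for each of the 6 libraries and a bar for the mean. G2 and mitosis lies farthest to the right and all 6 points of the HSC list lie to the left of 0, while the myeloid point of Dlk1+ replicate 4 stands apart from the other 5.

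The immediate early genes, transcription factors and feedback regulators that cells switch on within minutes of a stimulus, including the handling of tissue, were lower. They summed to 7744 ± 1730 against 12397 ± 1700 CPM, 0.625 of the marker-free level, and were lower in 5 of 6 libraries. Of 20 tested members 13 fell and 0 rose, beside 9.55% of all tested genes that fell. Without the cell rich in granulocyte transcripts 11 fell and 1 rose, without 4 cells of very high depth 8 fell, and against depth-matched marker-free cells 12 fell. Jun, a subunit of the AP-1 factor, was at 1058, 1030, 1143, 780, 1229 and 761 CPM in mitotic-transcript and 1636, 1501, 1333, 1438, 2209 and 1658 CPM in marker-free cells, with no overlap (log2 difference -0.72 ± 0.10, limma-voom adjusted p = 8.04e-06). Fos, its partner, fell by 0.55 but was higher in the mitotic-transcript cells of Dlk1- replicate 3, at 2052 against 1688 CPM. Its call was lost without Dlk1+ replicate 4. Egr1, a zinc finger factor, fell by 0.89 and Socs3, which dampens cytokine signals, by 0.98, a call that was lost without Dlk1+ replicate 4.

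Markers of the blood lineages did not move together. The myeloid list summed to between 191 and 388 CPM in 5 mitotic sums and to 23895 CPM in Dlk1+ replicate 4, against 374 to 562 CPM in marker-free cells. Without the granulocyte-rich cell the mitotic level was 297 ± 105 against 424 ± 73.2 CPM, 0.70 of it and lower in 6 of 6 libraries. Prtn3, proteinase 3 of granulocyte precursors, was the 1 tested member, at 252 ± 187 against 309 ± 42.9 CPM (limma-voom adjusted p = 0.552). Car2, a carbonic anhydrase of red cells and the tested erythroid gene, had 931 ± 253 against 738 ± 90.8 CPM (adjusted p = 0.0865 in the limma-voom fit). Without the granulocyte-rich cell Car2 was called higher. Car2 made up most of the erythroid list's sum, which was 1111 ± 267 against 893 ± 94.7 CPM, higher in 5 of 6 libraries. Of 16 erythroid genes detected 9 had the higher mean and 7 the lower. With the granulocyte-rich cell left out the erythroid sum was 1.31 times as high and higher in 6 of 6. Of 6 tested megakaryocyte genes 1 was called higher, beside 8.4% of all tested genes. It was Rap1b, a small GTPase of platelets, by 0.64, a call lost without Dlk1- replicate 1. The megakaryocyte list's sum was 1.19 times as high and higher in 4 of 6 libraries.

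Multipotent progenitor genes gave 1 call upward of 4 tested, beside 8.4% of all tested genes that rose. The median log2 difference of the 4 was 0.017. The call was Coro1a, an actin-binding protein of leukocytes, at 189 ± 97.3 against 109 ± 42.2 CPM. The list's sum was 749 ± 83.2 against 796 ± 148 CPM without the granulocyte-rich cell. No B cell, T and NK cell or endothelial marker reached the level needed for a test. Apoe, apolipoprotein E, fell by 0.71, and H2-Aa, a class II MHC chain, fell by 2.28, from 178 ± 45.6 to 43.6 ± 44.1 CPM. The MHC class II list as a whole was at 226 ± 131 against 464 ± 94.5 CPM, lower in 6 of 6 libraries. The interferon response list was at 1475 ± 134 against 2057 ± 237 CPM, also lower in 6 of 6. Of its 4 tested members 1 was called, Ly6e, by -0.33, beside 9.55% of all tested genes that fell. The call of Ly6e held in 11 of 28 alternatives and was lost with library size alone, against depth-matched cells, and without Dlk1- replicate 4, Dlk1+ replicate 1 or Dlk1+ replicate 4.

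Transcripts of the mitochondrial genome, which encodes part of the respiratory chain, fell in 12 of 14 tested genes, beside 9.55% of all, and in 11 of 14 without the cell rich in granulocyte transcripts. Their sum was 0.818 of the marker-free level, lower in 6 of 6 libraries. mt-Nd5, a subunit of complex I, had 3114, 3265, 3724, 2500, 3088 and 2402 CPM against 5187, 4496, 5213, 3812, 4513 and 3753 CPM, without overlap (log2 difference -0.59 ± 0.05, limma-voom adjusted p = 2.03e-08). mt-Co1, a subunit of cytochrome oxidase, fell by 0.38. Against depth-matched marker-free cells 12 of 14 again fell.

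Nuclear genes of oxidative phosphorylation summed to 9128 ± 749 against 7355 ± 233 CPM, 1.24 times as high and higher in 6 of 6 libraries. Of 39 tested members 9 rose and 0 fell, beside 8.4% of all tested genes that rose, and 8 rose without the cell rich in granulocyte transcripts. Cox5a, another cytochrome oxidase subunit, rose by 1.27 and Ndufb8, of complex I, by 0.96, while Atp5g3, of the ATP synthase, rose by 0.75. The marker-free means of Cox5a and Ndufb8 lay under the filter's cutoff of 76.0 CPM, so the filter favoured the rise of both genes. Without Dlk1- replicate 1 only 4 of 39 rose, near the share of all genes. As a share of each cell's transcripts, measured at the cell level, the mitochondrial genome took a mean of 10.1% in mitotic-transcript and 11.3% in marker-free cells, lower in 6 of 6 libraries (exact sign-flip test, adjusted p = 0.078).

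Genes of the translation machinery changed by smaller amounts. Ribosomal protein genes summed to 0.893 of the marker-free level, lower in 6 of 6 libraries, with 22 of 72 tested members lower and 1, Rpl41, higher, beside 9.55% and 8.4% of all tested genes. The lower members numbered 19 without the cell rich in granulocyte transcripts. The call of Rpl41 was lost without Dlk1- replicate 1, 2 or 4 or Dlk1+ replicate 1. With library size alone 6 fell, and without Dlk1- replicate 2 or Dlk1+ replicate 4 the numbers were 12 and 11. Rpl5, of the large subunit, had a log2 difference of -0.35. Among 12 tested genes of the nucleolus, Nop56 and Nop58, of the box C/D particles that modify ribosomal RNA, rose by 0.69 and 0.64, a share of the list near the 8.4% of all tested genes at this size. The call of Nop58 was lost against depth-matched cells (log2 difference 0.42, limma-voom adjusted p = 0.233) and without Dlk1- replicate 1 or 2. Without Dlk1- replicate 1 the number was 1, and without Dlk1- replicate 4 or Dlk1+ replicate 1 it was 4. Of 25 proteasome and folding genes 4 rose, among them Ppia, the peptidyl-prolyl isomerase cyclophilin A, by 0.56, beside 8.4% of all tested genes, and without Dlk1+ replicate 4 there were 2. Both counts, for the nucleolus and for folding, were the same without the cell rich in granulocyte transcripts. In glycolysis Gapdh rose by 0.49 and Aldoa fell by 0.80, of 9 tested, near the 8.4% and 9.55% of all tested genes. The call of Aldoa was lost without Dlk1- replicate 1.

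Whether the contrast itself differed between Dlk1+ and Dlk1- cells was tested with an interaction term over the 6 libraries. No gene passed (0 of 1655, 0.0%), with 100 at an unadjusted p under 0.05 and a smallest adjusted p of 0.083 in limma-voom. Only 2 Dlk1+ libraries entered it. Without Dlk1- replicate 4 there were 2 calls and without Dlk1+ replicate 1 there were 3.

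**Figure D2:**
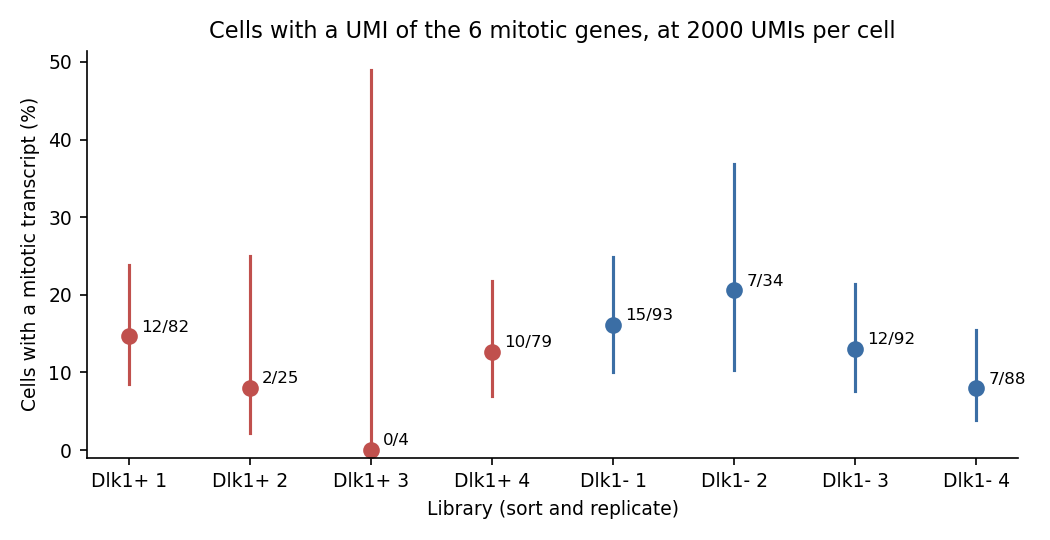
Percentage of cells with a marker UMI at 2000 UMIs in each of the 8 libraries, with the 95% Wilson interval as error bars. The Dlk1- libraries lie between 7.95% and 20.6% and the Dlk1+ libraries between 0% and 14.6%, and the intervals overlap.

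The share of mitotic-transcript cells differed between the sorts by no more than the spread of the libraries. It was 16.1% (95% Wilson interval 10.0% to 24.9%, counting error only), 20.6%, 13.0% and 7.95% in Dlk1- replicates 1 to 4. The Dlk1+ replicates gave 14.6%, 8%, 0% and 12.7%. The mean was 8.82 ± 6.51% in Dlk1+ and 14.4 ± 5.31% in Dlk1- libraries, a difference of -5.61 percentage points (two-sided exact permutation test over 70 assignments, p = 0.229, smallest possible 0.0286). On the plate numbered 5 in the deposited tables the means were 11.3% and 18.4%, and on plate 6 they were 6.33% and 10.5%. The low Dlk1+ mean rests in part on replicates 2 and 3, with 25 and 4 cells. Without Dlk1+ replicate 3 the difference was -2.66 points and without Dlk1- replicate 2 it was -3.55 points. With at least 2 marker UMIs required, the difference was -0.346 points (exact permutation test, p = 0.943), and with cells thinned to 3000 UMIs it was -0.673 points. Pooled over cells the shares were 12.6% of 190 and 13.4% of 307.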

How the data were processed

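Single LT-HSC were measured with mCEL-Seq2 in 8 libraries. Per the submitters' processing notes BWA 0.6.2-r126 and mm10 were used; other filters are not given in the sources used here. The authors deposited estimated transcript counts per gene and cell barcode, UMI counts corrected for collisions and not scaled for depth. Inverting the correction gave whole UMIs (largest distance 3.64e-12), which were thinned with seed 1. The unit of these deposited counts could not be checked as counts, so limma-voom 3.58.1 (R 4.3.3) replaced the planned edgeR test. The design was library plus cell group, on sums with at least 3 cells in both groups, with scaling by trimmed mean of M-values, a count of at least 10 at the median sum size in 6 sums and a total of at least 15. P-values were adjusted by Benjamini-Hochberg at a false discovery rate of 0.05. Simulated sums with known changes served to check this fit. They had the same dispersion for every gene and held no single cells, so they do not cover a cell that dominates a sum. Measures per cell were compared by exact sign-flip tests over libraries. No doublet caller was run. In Dlk1+ libraries 10 barcodes (17, 20 to 24 and 29 to 32) were left out.

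The cells, gene lists and alternatives were chosen with earlier results of these data known. The genes named are the 6 markers, the 20 called genes with the largest rise and the 10 with the largest fall, the called members of each list, for a list without a call the 2 members with the smallest p, and 14 sort and stem cell genes; the granulocyte genes were singled out later, from their values. A called list member is not reported here by itself. Replicate numbers were not used as pairs. Sequences and positions came from RefSeq tables on GRCm38.p6. Totals per library ranged from 9428 to 512860 transcripts on the cells used, and the sums in the test from 44066 to 422752. A count of 10 at the median of these sums is 76.0 CPM, and genes below it in too many sums were not tested.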

Additional observations from a re-analysis of the deposited data

Results flagged for a closer look

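In each group of 6 libraries the difference between mitotic-transcript and marker-free cells was checked for a value far from the others. This flagged 11 of 139 groups, where chance flags about 1 in 20. Dlk1- replicate 2, with 7 mitotic-transcript cells, stood apart in 4: genes per cell at 2000 UMIs (-40), the mitochondrial share (-2.50 percentage points), the share of Gm10800 plus Gm26870 (7.48 points) and the condensin gene Smc2 (log2 ratio 4.69). Dlk1- replicate 4 stood apart for Procr (-3.61, from 0 transcripts in its mitotic-transcript cells) and for Rpl19 (-0.054). Dlk1+ replicate 1 did so for the chaperonin gene Cct7 (1.36), for Rpl23 (-0.036) and for Rps21 (0.047), where the other libraries were further from 0. In Dlk1- replicate 1 mt-Rnr1, the small mitochondrial ribosomal RNA, was at 0.35. In Dlk1+ replicate 4 the chaperone gene Calr was at 1.07, in the library of the cell rich in granulocyte transcripts, and without that cell its call was lost.

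Barcodes outside the cells held marker UMIs too. In the Dlk1- libraries, the 10 barcode numbers left out on the Dlk1+ side hold no sorted cell. They carried 8.47 marker UMIs per 10000 (22 of 25978), against 3.22 in the own wells of the Dlk1- libraries. The other unused barcodes held 5.49 per 10000 over all 8 libraries. In Dlk1- replicates 1 to 4 these held 2, 4, 5 and 1 marker UMIs among 4182, 3093, 3666 and 3152 UMIs. In Dlk1+ replicates 1 to 4 they held 1, 0, 0 and 0 among 3593, 1228, 486 and 4263. What these UMIs are was not tested.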

How the results depend on the processing

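Against 139 higher and 158 lower genes, the lower count was 100 with library size alone, 105 with thinning seed 3, 102 without 4 cells of very high depth and 93 with no replicate block, where the total was 186. With no filter on low counts 6772 genes passed (5985 higher, 787 lower), a setting in which 0.5 is added to zero counts of sums of unequal size, and with a total of at least 50 there were 486 (330 higher). Thinned UMIs gave 38 (22 and 16) of 385 tested, and cells with exactly 1 marker UMI 34 (24 and 10). Leaving out 1 library gave totals of 219 to 313, 96 to 192 higher and 93 to 160 lower (93 without Dlk1+ replicate 4), and 0 to 3 calls for the difference between sorts. Leave-one-out ranges of the per-cell differences were 0.439 to 0.609 (log2 transcripts), 30.8 to 52.6 (genes), -1.30 to -0.917 (mitochondrial share), -1.002 to -0.479 (ribosomal protein share) and -2.45 to -0.177 (Gm10800 plus Gm26870), and -7.76 to -2.66 points for the share between sorts. The transcript difference passed with seed 5 (0.588), with libraries of at least 1 cell (0.627) and with no replicate block (0.53), as did the ribosomal protein share with seed 5 (-0.813) and the mitochondrial share with at least 1 cell (-1.07). Signs turned for Btg2 (0.087), Klf6 (0.19), Rpl37a (0.00318) and mt-Rnr1 (0.030) with exactly 1 marker UMI, and for Gas5 (0.052), Kit (0.11), Rpl37 (0.00725) and Rps6 (0.027) on thinned UMIs. The causes were not tested. Of 132 named called genes 32 were called in all alternatives that tested them, and 40 lost the call in some leave-one-out. Same-numbered libraries of the 2 sorts correlated at 0.0561 to 0.160 in their deviations, and differently numbered ones at -0.143 to 0.0764. For each Dlk1+ replicate the same-numbered Dlk1- library gave the highest value. Whether same-numbered libraries belong together was not tested. With a replicate block the share difference stayed -5.61 (exact sign-flip test, p = 0.375). DESeq2 was not run. The mitotic sums rest on 7 to 15 cells each, which limits every gene under 76.0 CPM.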

Other observations

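Beyond the lists, 9 called genes were chosen after their values were seen, and each kept its call in the limma-voom fits without any single library, without the cell rich in granulocyte transcripts, with library size alone and against depth-matched marker-free cells. Because they were chosen from these values, they are examples, and their stability and lack of overlap support nothing further. Rad21, the cleavable subunit of the cohesin ring that holds sister chromatids together, was at 238 ± 68.0 CPM in mitotic-transcript and 101 ± 17.7 CPM in marker-free cells (SD, n = 6; log2 difference 1.25 ± 0.16, limma-voom adjusted p = 5.02e-06). Nucks1, a chromatin-bound nuclear protein, differed by 1.23 on the log2 scale. The RNA-binding genes Hnrnpa3 and Hnrnpab differed by 0.81 and 0.85 on the log2 scale. All 4 were higher in 6 of 6 libraries without overlap, where 5.32% of all tested genes showed no overlap.

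The 5 genes picked for this set from the 158 lower genes include signalling and survival genes. Pim1, a kinase induced by cytokines, was at 477 ± 89.2 CPM in mitotic-transcript and 982 ± 225 CPM in marker-free cells (log2 difference -1.04 ± 0.13, limma-voom adjusted p = 1.41e-06). Il2rg, the gamma chain shared by interleukin receptors, had 85.0 ± 34.7 against 202 ± 28.6 CPM, and Mcl1, which protects from apoptosis, 216 ± 50.8 against 419 ± 121 CPM. Glul, glutamine synthetase, fell by 1.04 and Gabarapl1, of the autophagosome membrane, by 0.90. These 5 were lower in 6 of 6 libraries without overlap, again beside 5.32% of all tested genes without overlap. With exactly 1 marker UMI, Hnrnpa3, Hnrnpab and Pim1 kept the call, with log2 differences of 0.68, 0.64 and -0.65.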
